A study of Mus musculus with 6 samples.

Results

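The conjugation enzymes of detoxification were taken as the genes of the platform annotation whose symbols begin with Ugt, Gst and a class letter, Mgst, Sult or Ces, followed by a digit. They came to 60 genes of 18193 measured, with 11 UDP-glycosyltransferase (UGT), 23 glutathione transferase (GST), 13 sulfotransferase (SULT) and 13 carboxylesterase (CES) genes. Each was read at the brightest of the probe sets paired with that gene alone. The 2 groups compared were 3 samples of renal mesenchymal stromal cells (MSC) and 3 of juxtaglomerular (JG) cells, all from adult C57BL6 mice of the Ren1c YFP genotype. The MSC had been sorted for CD44, a surface glycoprotein, and then cultured to confluence in DMEM with serum. The JG cells, the renin-secreting cells of the afferent arteriole, were sorted by their yellow fluorescence (YFP+). The labels repeat the MSC growth medium for the JG samples, and they do not say whether samples came from separate animals or pools, so p-values measure the spread between these samples, which may be technical.

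UGTs join a sugar, most often glucuronic acid, to a hydroxyl, carboxyl or amine group, GSTs join glutathione to an electrophilic centre, and SULTs transfer sulfate from the donor PAPS. Carboxylesterases open ester and amide bonds and so expose the groups that the transferases use. In the kidney, conjugating enzymes are best known from the proximal tubule, which also secretes conjugates into the urine and breaks glutathione conjugates down to mercapturic acids.

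Values are linear probe set intensities of single-channel Affymetrix arrays. A difference is the JG mean less the MSC mean of log2(intensity + 16), given ± SE, and a gene was called where limma's adjusted p over all 18193 genes was under 0.05. The added 16 understates the differences of genes that are dim in a group. Array medians ran from 27.3 to 36.5, and arrays correlated at a mean of 0.973 within MSC, 0.860 within JG and 0.759 between the groups. Of the antigen genes, Cd44 was 1005, 1035 and 881 in the MSC samples and 153, 119 and 144 in the JG samples. Ren1 was not analysed here, as no probe set was paired with it alone. Among 4 measured renin cell markers, Rgs5 and Rgs2 were called higher in JG, Fibin was called higher in MSC and Gja5 was not called. The 5 smooth muscle markers had 1, Myh11, called higher in JG and 3, Acta2, Tagln and Cnn1, called higher in MSC. Of 6 measured surface markers of mesenchymal stromal cells, 3 were called higher in MSC, Cd44 among them, and 2, Nt5e and Thy1, higher in JG. In the JG samples all 12 proximal tubule markers, all 5 of the thick ascending limb and all 5 of the distal convoluted tubule were called higher, and so were 5 of 6 collecting duct markers. The summed intensity of the proximal tubule markers was 40768, 32488 and 41670 in JG samples 1 to 3 and 377 to 677 in the MSC samples, none of the 12 markers being below 16 in all JG samples. Markers of each of these tubule segments were therefore higher in JG, as the called enzymes were, and their part in these results was not tested. In bulk RNA, more cells of a type and more RNA per cell cannot be told apart.

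Transcripts of 21 of the 60 enzymes were higher in JG and none was called higher in MSC. The background was 7.70% of all genes called higher in JG and 7.63% called higher in MSC, against 35.0% of the enzymes called higher in JG. The median difference was 0.87 over the 60 enzymes and 0.07 over all genes. By family, 6 of 11 UGT, 6 of 23 GST, 3 of 13 SULT and 6 of 13 CES genes were called higher in JG. At an unadjusted p under 0.05 in limma, 25 enzymes lay higher in JG, where the background was 15.3% of all genes, and 3, all GSTs, lay higher in MSC, where it was 16.5%. The 3 JG values all exceeded the 3 MSC values for 31 enzymes, 10 of them not called, where the background was 20.2% of all genes. All 3 lay below the MSC values for 3 enzymes, where the background was 18.5%. In a fit over all probe sets, of which 4.23% were called higher in JG, 6 of the called enzymes had further probe sets: for 3 (Ces1d, Sult1d1 and Ugt3a1) another was also called higher in JG, and for 3 (Gsta3, Ugt2b34 and Ugt8a) the other was not called. Of the 21 called genes 14 had all MSC values below 16, and 10 of the 60 lay below 16 on all 6 arrays.

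**Figure D1:**
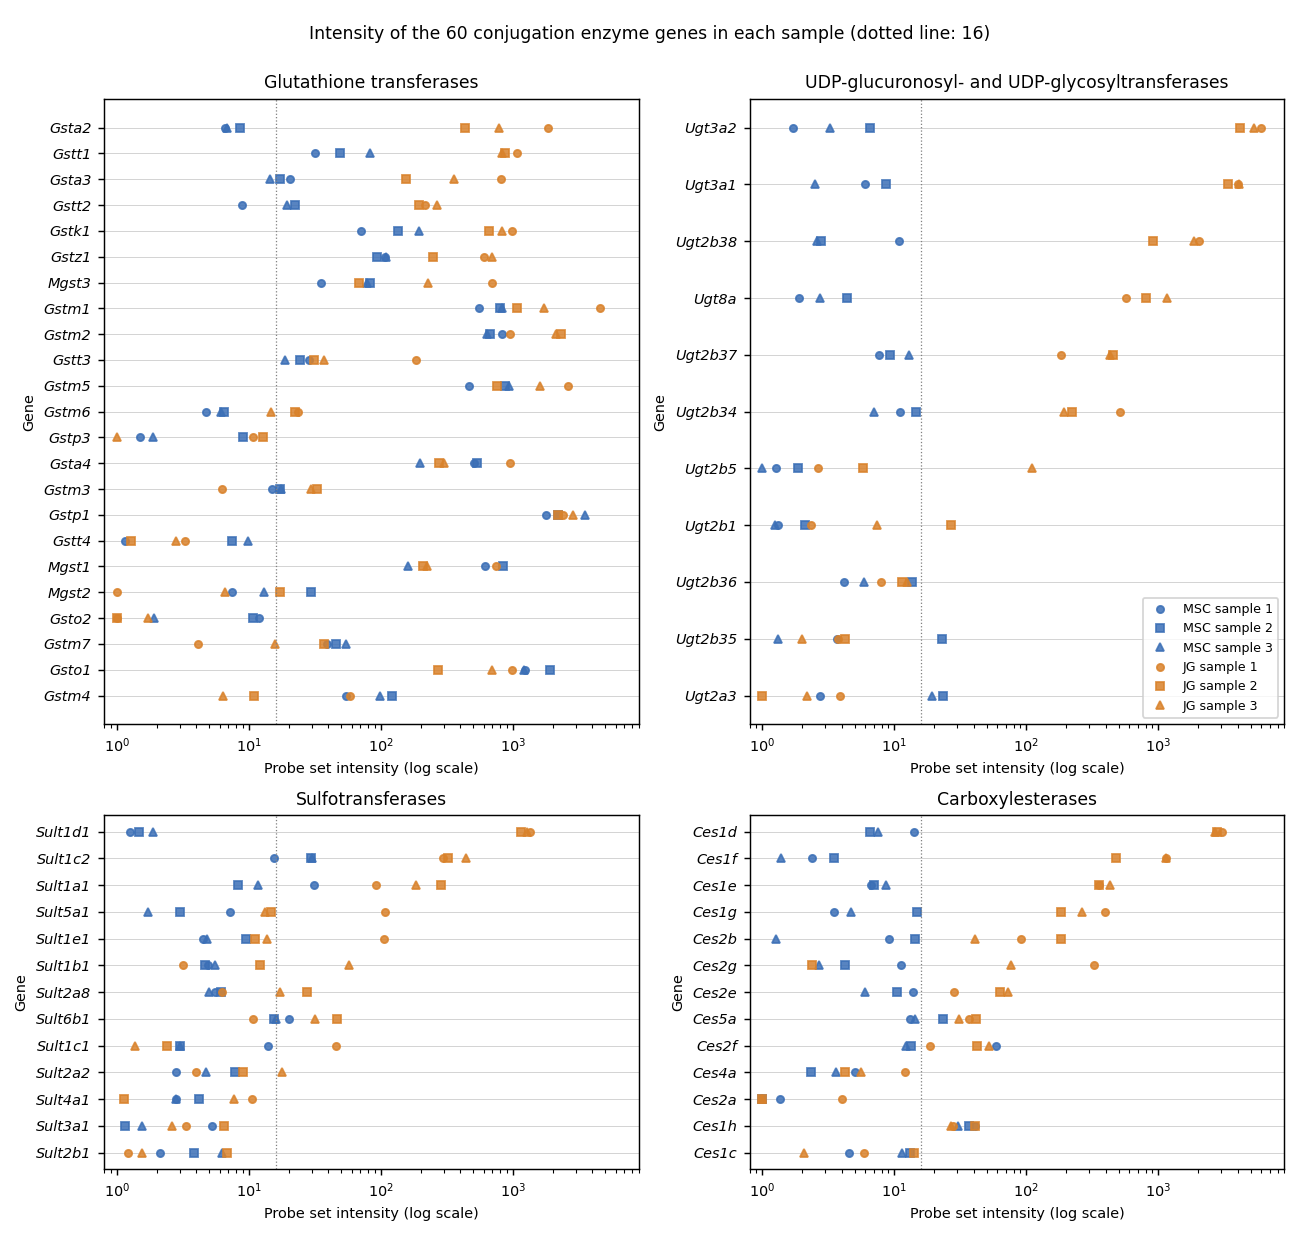
Probe set intensity (log axis) of the 60 conjugation enzyme genes, 1 point per sample, with genes ordered within each family by their difference. Blue points are MSC samples and orange points JG samples, marker shape gives the sample number, and the dotted line marks an intensity of 16. Ugt3a2 lies between 4133 and 6001 in JG and at 6.59 or less in MSC, whereas the points of Gstp1 from both groups overlap.

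Promoter sequence was set beside these values because near neighbours within the families differed. In RefSeq promoters of build GRCm38.p6, 52 of the 60 genes had at least 1 entry, 16 of the 21 called ones among them, in 64 windows. The 250 bases before each annotated start were searched on both strands for the site of the renal and hepatic factor HNF1 (GTTAAT, any base, ATT), for its core GTTAAT alone, which the longer motif contains, for AAAGTCCA of HNF4, and for TGACNNNGC, the antioxidant response element bound by NRF2. The longer HNF1 motif was found before 2 genes, Sult1d1 and Ces5a, and in 0.371% of all 32851 windows. The core was found before 6 genes (Ces5a, Gsta3, Sult1a1, Sult1d1, Ugt2a3 and Ugt3a1, of which 4 were called) and in 6.43% of all windows. The HNF4 motif was found before 0 of the 52 genes and in 1.01% of all windows. The antioxidant response motif stood before 4 genes, all of the GST family (Gsta3, Gstm5, Gstm7 and Mgst1, of which 1 was called), and in 10.2% of all windows. A match is a description of these letters and not of a site in use.

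The windows below are shown for the neighbouring genes Sult1d1, called higher in JG, and Sult1e1, not called, for Ugt3a1 and Ugt2b38, called higher by over 6 log2 units, and for the GST genes Gsta3 and Gstm5, which carry the antioxidant response motif. Each is given 5′ to 3′ along the gene's strand, ends at the base before the annotated start, and has motif matches in capitals: GTTAATAATT in Sult1d1, ATTAAC, the core on the opposite strand, in Ugt3a1, and ATTAAC and TGACATTGC in Gsta3. Gstm5 holds TGACCACGC, and Sult1e1 and Ugt2b38 hold no match in this window.
Sult1d1 (chr5:87569007-87569256, minus strand): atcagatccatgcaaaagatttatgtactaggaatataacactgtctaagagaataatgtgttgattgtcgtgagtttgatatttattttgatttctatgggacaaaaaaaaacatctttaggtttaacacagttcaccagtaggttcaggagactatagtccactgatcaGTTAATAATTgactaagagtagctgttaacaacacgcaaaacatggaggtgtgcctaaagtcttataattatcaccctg
Sult1e1 (chr5:87591612-87591861, minus strand): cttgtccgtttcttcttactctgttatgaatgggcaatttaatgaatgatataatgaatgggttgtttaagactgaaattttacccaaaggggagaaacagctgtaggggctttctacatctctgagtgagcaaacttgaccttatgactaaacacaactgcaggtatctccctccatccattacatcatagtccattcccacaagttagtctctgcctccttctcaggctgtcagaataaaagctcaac
Ugt3a1 (chr15:9279579-9279828, plus strand): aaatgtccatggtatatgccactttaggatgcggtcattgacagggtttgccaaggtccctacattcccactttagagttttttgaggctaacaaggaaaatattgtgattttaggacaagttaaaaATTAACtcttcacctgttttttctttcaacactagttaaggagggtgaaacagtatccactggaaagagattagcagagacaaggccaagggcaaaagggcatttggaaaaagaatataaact
Ugt2b38 (chr5:87424204-87424453, minus strand): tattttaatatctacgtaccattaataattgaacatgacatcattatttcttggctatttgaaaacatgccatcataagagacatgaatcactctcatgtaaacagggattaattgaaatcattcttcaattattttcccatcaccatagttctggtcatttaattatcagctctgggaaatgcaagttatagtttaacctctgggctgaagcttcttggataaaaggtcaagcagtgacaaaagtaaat
Gsta3 (chr1:21240335-21240584, plus strand): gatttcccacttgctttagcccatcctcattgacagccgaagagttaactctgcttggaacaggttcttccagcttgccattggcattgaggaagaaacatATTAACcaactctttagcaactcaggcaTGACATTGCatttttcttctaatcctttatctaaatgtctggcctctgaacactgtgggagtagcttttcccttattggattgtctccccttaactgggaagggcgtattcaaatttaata
Gstm5 (chr3:107895604-107895853, plus strand): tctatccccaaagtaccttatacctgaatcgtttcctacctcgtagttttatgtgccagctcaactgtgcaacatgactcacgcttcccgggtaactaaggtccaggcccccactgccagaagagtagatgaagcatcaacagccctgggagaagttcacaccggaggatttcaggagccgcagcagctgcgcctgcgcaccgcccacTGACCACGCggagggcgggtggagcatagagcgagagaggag

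Of the 11 UGT genes 6 were called higher in JG and 5 were not called. Ugt3a2 and Ugt3a1, neighbouring genes of a subfamily whose human counterparts use sugars other than glucuronic acid, were the brightest UGT genes in JG. Ugt3a2 was 6001, 4133 and 5331 in JG samples 1 to 3 and 1.72, 6.59 and 3.25 in MSC samples 1 to 3. Its 3 JG values lay close together and far above every MSC value (8.02 ± 0.25, adjusted p = 4.52e-05). Ugt3a1 was 4034, 3354 and 4098 in JG and 6.01, 8.65 and 2.51 in MSC, with the groups again far apart (7.47 ± 0.23, adjusted p = 4.52e-05). A further probe set of Ugt3a1 gave 3903, 3331 and 3931 in JG, where MSC reached 7.59. Ugt8a makes galactosylceramide, a membrane lipid, and is a UGT by sequence that does not act on drugs. It was 563, 806 and 1170 in JG and 1.89, 4.39 and 2.74 in MSC (5.45 ± 0.31, adjusted p = 1.91e-04). A dimmer probe set of Ugt8a gave 228, 12.4 and 255 in JG and was not called in a fit over all probe sets.

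Within the Ugt2b subfamily, whose enzymes glucuronidate steroids and many drugs, 3 of 7 genes were called. Ugt2b38 was 2019, 910 and 1861 in JG and 10.9, 2.76 and 2.61 in MSC (6.17 ± 0.38, adjusted p = 2.22e-04), with JG sample 2 the lowest of its group. Ugt2b37 was 184, 451 and 427 in JG and 7.59, 9.23 and 12.8 in MSC (3.74 ± 0.38, adjusted p = 0.0017), and here JG sample 1 was the lowest. Ugt2b34 was 508, 220 and 192 in JG and 11.1, 14.7 and 6.95 in MSC (3.47 ± 0.40, adjusted p = 0.0029). Its dimmer probe set, at 216, 27.6 and 137 in JG, was not called over all probe sets. The other members were dim: Ugt2b5 reached 110 in JG sample 3 and 5.74 or less elsewhere, Ugt2b1 27.0 in JG sample 2, Ugt2b35 22.8 in MSC sample 2 and Ugt2b36 13.7 at most. Ugt2a3, an enzyme of the related Ugt2a group, was 2.71, 23.2 and 19.2 in MSC and 3.86, 1.00 and 2.16 in JG, short of a call (-0.69 ± 0.34, adjusted p = 0.212).

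**Figure D2:**
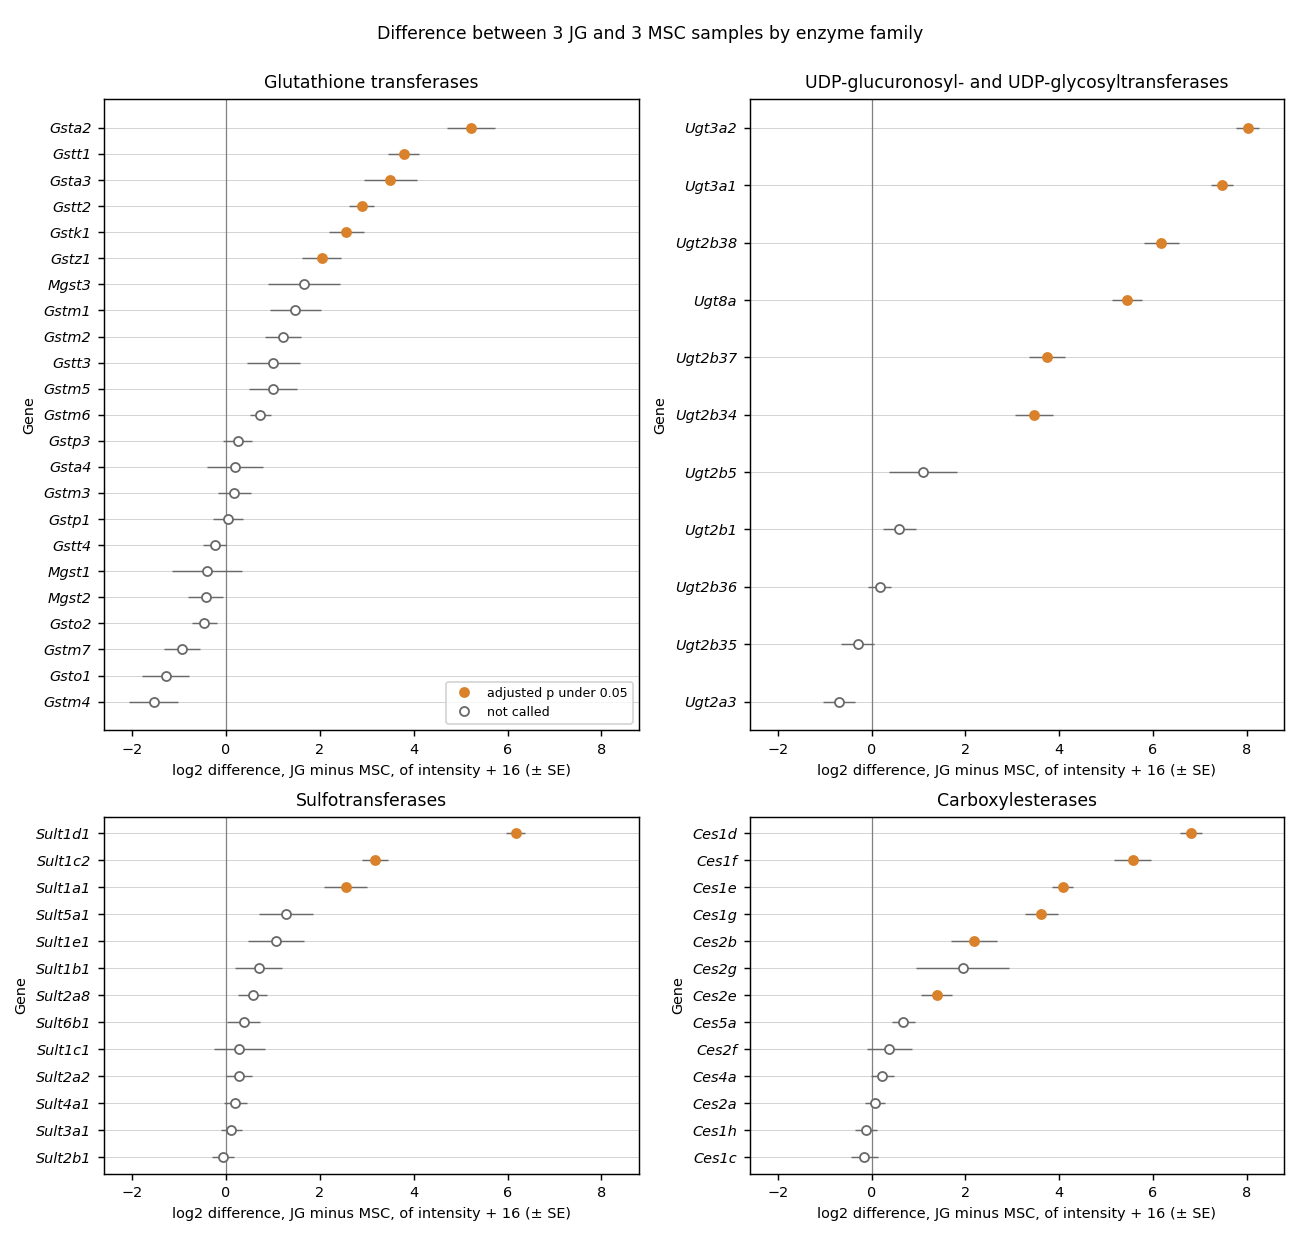
Difference between 3 JG and 3 MSC samples for each of the 60 genes, as log2 of the intensity plus 16, with bars for the SE of the fit. Filled points passed an adjusted p of 0.05. All 21 filled points lie to the right of 0, from 8.02 for Ugt3a2 to 1.39 for Ces2e, and the 4 lowest GST points (Gstm4, Gsto1, Gstm7 and Gsto2) lie to the left of 0 and are open.

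The calls among the glutathione transferases are given by class, and no difference between classes was tested. Both kappa and zeta genes, 2 of 4 theta genes and 2 of 3 alpha genes were called higher in JG, whereas 0 of 7 mu, 0 of 2 pi, 0 of 2 omega and 0 of 3 microsomal genes were called in either direction. Of all genes 7.70% were called higher in JG and 7.63% in MSC, so 0 calls in classes this small are near the background. In MSC 9 of 23 GSTs had a mean over 100, where 7900 of all 18193 genes did, so the GST share was near the background. None of the UGT, SULT and CES genes had an MSC mean over 100.

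Of the alpha class, which reduces lipid peroxides and conjugates many xenobiotics, Gsta2 differed most. It was 1858, 431 and 779 in JG and 6.63, 8.61 and 6.88 in MSC (5.22 ± 0.52, adjusted p = 0.00155). Gsta3, whose window above holds both an antioxidant response and a core HNF1 match, was 820, 154 and 360 in JG and 20.4, 17.2 and 14.3 in MSC (3.51 ± 0.56, adjusted p = 0.0104). For both genes JG sample 1 was the brightest and JG sample 2 the dimmest of the group. Gsta3 missed the threshold with MSC sample 2 (adjusted p = 0.0522) or 3 (adjusted p = 0.0537) left out. Gsta4, which conjugates the lipid aldehyde 4-hydroxynonenal, did not follow: it was 956, 278 and 301 in JG and 507, 534 and 197 in MSC, with overlapping groups (0.19 ± 0.60, adjusted p = 0.860).

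Of the theta, kappa and zeta genes 4 of 6 were called. Gstt1, which acts on small halogenated compounds, was 1072, 868 and 822 in JG and 31.7, 49.4 and 82.4 in MSC, a 13.8-fold difference of the values plus 16 (3.79 ± 0.33, adjusted p = 9.40e-04). Gstt2 was 215, 195 and 268 in JG and 8.93, 22.5 and 19.5 in MSC (2.89 ± 0.27, adjusted p = 0.00128). Gstt3 had all JG values above MSC, at 186, 31.3 and 37.2 against 18.8 to 28.3, and was not called (adjusted p = 0.278). Gstk1, the mitochondrial and peroxisomal kappa enzyme, was 977, 658 and 834 in JG and 70.2, 134 and 195 in MSC, a 5.93-fold difference (2.57 ± 0.38, adjusted p = 0.00774). Gstz1 is maleylacetoacetate isomerase of tyrosine breakdown, and it was 609, 248 and 692 in JG and 107, 92.7 and 110 in MSC (2.04 ± 0.41, adjusted p = 0.0224). Gstz1 missed the threshold when MSC sample 1, 2 or 3 or JG sample 3 was left out (adjusted p from 0.0617 to 0.0955).

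Of the mu, pi and omega genes, Gstm1, Gstm2, Gstm5, Gstp1 and Gsto1 had means over 100 in both groups. Gstm1, the main hepatic mu enzyme, was 4543, 1069 and 1717 in JG and 554, 803 and 832 in MSC, so that all JG values were higher and JG sample 2 stood near MSC (1.48 ± 0.54, adjusted p = 0.119). Of its 3 further probe sets none was called over all probe sets. At a dimmer one the groups overlapped, with 187, 13.8 and 27.1 in JG and 26.4, 32.1 and 33.8 in MSC. Gstm2 was 950, 2313 and 2116 in JG and 830, 671 and 639 in MSC (1.22 ± 0.39, adjusted p = 0.0852), and here JG sample 1 stood nearest to MSC. Without JG sample 1 Gstm2 was called higher in JG (1.62, adjusted p = 0.00745). Gstm5, whose window above holds an antioxidant response match, was 2604, 763 and 1597 in JG and 468, 866 and 932 in MSC, with overlap (1.01 ± 0.51, adjusted p = 0.230). Gstp1, the main pi enzyme, had the highest MSC mean of all 60 genes. It was 2382, 2187 and 2860 in JG and 1769, 2200 and 3491 in MSC, and the difference was 0.04 ± 0.32 (adjusted p = 0.938). Its sign turned with MSC sample 1 or 2 or JG sample 3 left out.

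Some GST transcripts lay towards MSC without being called. Gsto1, an omega enzyme that reduces dehydroascorbate and arsenic species, was 1235, 1926 and 1212 in MSC and 986, 272 and 694 in JG, so that the groups did not overlap (-1.29 ± 0.50, adjusted p = 0.135). Its other probe set gave 391, 651 and 492 in MSC and 219, 8.40 and 237 in JG. Gstm4 was 54.8, 121 and 99.1 in MSC and 58.6, 11.0 and 6.36 in JG (-1.55 ± 0.52, adjusted p = 0.0991), and Gstm7 was 38.9, 45.5 and 54.0 in MSC and 4.09, 36.8 and 15.9 in JG (-0.94 ± 0.38, adjusted p = 0.154). Gsto1 and Gstm4 were called higher in MSC without JG sample 1, which makes 2 such calls in place of 0. Gstm7 was called higher in MSC without JG sample 2. Of all 18193 genes, 2643 were called higher in MSC without JG sample 1 and 1286 without JG sample 2. In both fits the share of the 60 enzymes called higher in MSC was thus below the background. Of the microsomal enzymes, Mgst1 was 618, 838 and 159 in MSC and 750, 207 and 224 in JG (adjusted p = 0.748). Mgst3 was 700, 68.3 and 228 in JG and 35.4, 82.2 and 78.0 in MSC (adjusted p = 0.196), and both thus overlapped. The remaining GST genes (Gstm3, Gstm6, Gstp3, Gstt4, Gsto2 and Mgst2) had no value above 32.9 on any array.

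Among the sulfotransferases, all called genes belonged to the Sult1 group, 3 of its 6 measured genes. Sult1d1, which sulfates catecholamines and other phenols in mice, was 1337, 1146 and 1270 in JG and 1.25, 1.47 and 1.89 in MSC. The JG values were even and the groups far apart (6.17 ± 0.21, adjusted p = 4.52e-05), and its other probe set was 580, 246 and 618 in JG and reached 5.66 in MSC. Sult1c2 was 293, 324 and 439 in JG and 15.6, 29.3 and 30.0 in MSC (3.17 ± 0.28, adjusted p = 0.00101). Sult1a1, the phenol sulfotransferase, was 91.9, 286 and 183 in JG and 31.3, 8.32 and 11.8 in MSC (2.55 ± 0.46, adjusted p = 0.015), and leaving out MSC sample 2 or 3 or JG sample 3 took it past the threshold (adjusted p from 0.0521 to 0.0725), as did the replicate number as a block (adjusted p = 0.06).

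The other 10 sulfotransferases were dim or bright in a single sample. Sult1e1, the oestrogen sulfotransferase, was 106 in JG sample 1 and 11.2 and 13.7 in the others, against 4.46 to 9.46 in MSC (adjusted p = 0.273). Sult5a1 was likewise 107 in JG sample 1 and 14.8 and 13.2 in the others (adjusted p = 0.189), and Sult1b1 was 57.7 in JG sample 3 and at most 12.2 in the others (adjusted p = 0.382). Sult6b1, among the brightest SULT genes in MSC, was 20.3, 15.6 and 15.9 there and 10.8, 46.6 and 31.8 in JG (adjusted p = 0.507). Sult1c1, Sult2a2, Sult2a8, Sult2b1, Sult3a1 and Sult4a1 had no value above 45.5. The hydroxysteroid sulfotransferases of the Sult2 group, bright in liver, thus had no value above 27.7 in either group.

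Of the 6 Ces1 carboxylesterases Ces1d, Ces1e, Ces1f and Ces1g were called higher in JG, each with all MSC values below 16, and Ces1c and Ces1h were not called. Ces1d, a lipase of hepatocytes and fat cells that also cleaves ester drugs, was 3016, 2778 and 2674 in JG and 14.1, 6.58 and 7.48 in MSC (6.81 ± 0.23, adjusted p = 4.52e-05). Both further probe sets of Ces1d were called in the same direction, 1 of them with uneven JG values of 1773, 167 and 600. Ces1f was 1144, 475 and 1135 in JG and 2.37, 3.47 and 1.38 in MSC (5.56 ± 0.38, adjusted p = 3.76e-04), at a probe set with the suffix s, which can match several transcripts. Ces1e was 353, 354 and 431 in JG and 6.61, 7.01 and 8.57 in MSC (4.07 ± 0.22, adjusted p = 1.50e-04). Ces1g, which hydrolyses triacylglycerol in liver, was 393, 184 and 264 in JG and 3.48, 14.8 and 4.70 in MSC (3.62 ± 0.35, adjusted p = 0.00142).

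Of the 5 Ces2 genes 2 were called higher in JG. Ces2b was 91.7, 184 and 41.1 in JG and 9.06, 14.3 and 1.26 in MSC (2.18 ± 0.50, adjusted p = 0.0331), and Ces2e was 28.4, 63.6 and 72.2 in JG and 13.8, 10.5 and 5.99 in MSC (1.39 ± 0.33, adjusted p = 0.0388). Ces2b missed the threshold with MSC sample 1, 2 or 3 left out (adjusted p from 0.089 to 0.131), and Ces2e without any 1 sample other than JG sample 1 (adjusted p from 0.0765 to 0.15). Ces2b was also not called after quantile normalization (adjusted p = 0.059) or with a pseudocount of 64 (adjusted p = 0.0797). Ces2e was also not called with a pseudocount of 64 (adjusted p = 0.0655), over all probe sets (adjusted p = 0.0508) or with the replicate number as a block (adjusted p = 0.101). Ces2g was 324 in JG sample 1, 2.39 in JG sample 2 and 76.5 in JG sample 3, with no call (1.94 ± 0.99, adjusted p = 0.234). Ces1h, Ces2f and Ces5a had the highest MSC means of the family, from 16.9 to 36.0. Ces1h was 40.7, 37.0 and 30.2 in MSC and 28.0, 40.8 and 26.9 in JG (adjusted p = 0.756), and Ces2f overlapped too (adjusted p = 0.63). Ces5a was 37.0, 41.5 and 30.9 in JG and 13.1, 23.2 and 14.4 in MSC, without overlap and without a call (adjusted p = 0.107). Ces1c, Ces2a and Ces4a stayed below 16 on all arrays.

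Most of these genes lie in runs of related neighbours, and within a run the values differed. By gene order in RefSeq, Ces1c, Ces1d, Ces1e, Ces1f, Ces1g, Ces1h and Ces5a follow each other with 0 other protein-coding genes between them. The 4 in the middle were called, and those at the ends were not. Of 8 consecutive Ugt2 genes the first (Ugt2b34), the sixth (Ugt2b37) and the last (Ugt2b38) were called, and Ugt2a3, between the last 2 of these, had its higher values in MSC. Sult1d1 was called between Sult1b1 and Sult1e1, and Gstt1 and Gstt2 were called on either side of Gstt4, which had no value above 9.79. The 7 Gstm genes, also consecutive, ran from 1.48 for Gstm1 to -1.55 for Gstm4, its neighbour, with 0 calls. Probes can cross-hybridise between such copies, and the table used here does not separate this.

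**Figure D3:**
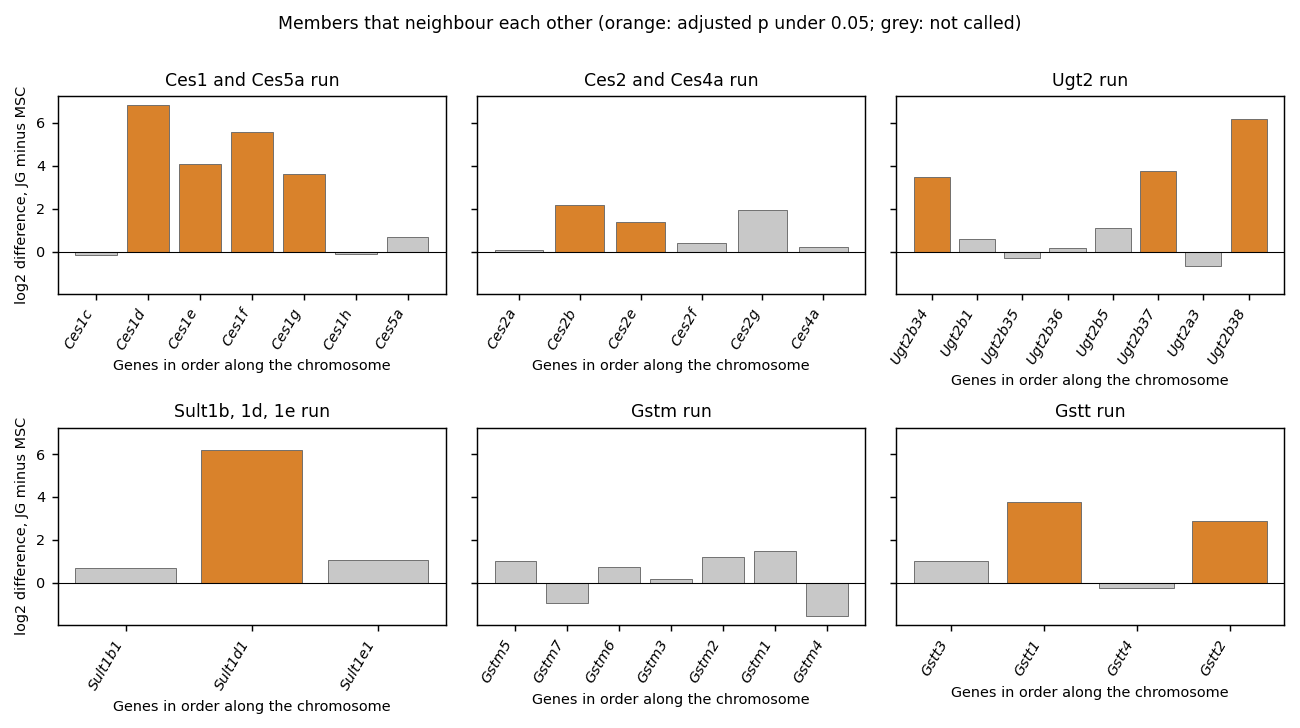
Difference, JG minus MSC, on the log2 scale for members that neighbour each other, in gene order along the chromosome (not to distance). Orange bars passed an adjusted p of 0.05 and grey bars did not. In the Ces1 run the bars of Ces1d to Ces1g reach 3.62 to 6.81, and those of Ces1c and Ces1h, on either side, are close to 0.

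The 3 JG samples were not alike in these enzymes. Of the 29 members with a JG mean over 100, 18 were brightest in JG sample 1 and 19 were dimmest in JG sample 2. Among all 8160 genes with a JG mean over 100 the shares were 43.8% and 52.5%, against 62.1% and 65.5% of the members. Among the GST genes it was 10 and 12 of 14, and the median gap between JG sample 1 and JG sample 2 was 1.74 on the log2 scale, against 0.41 over all genes with a JG mean over 100. The UGT genes split 3 of 6 and 3 of 6, with a median gap of 0.40. The median SD among JG samples was 0.52 for the members and 0.54 for all genes, and 0.22 and 0.26 among MSC samples.

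Markers of several cell types moved with that order. JG sample 1 was highest and JG sample 2 lowest in the summed markers of the distal convoluted tubule (12639, 2742 and 7950 in JG samples 1 to 3), the thick ascending limb (12046, 8624 and 10385), the collecting duct (5392, 3232 and 4500) and fibroblasts (21379, 8609 and 11693). The proximal tubule sum, given above, was lowest in JG sample 2 and highest in JG sample 3. The macrophage sum, 776, 1819 and 2751, was lowest in JG sample 1. The part of these in the spread of the GST genes was not tested. Of 4 hepatocyte markers 1, Ttr, was called higher in JG. Apob, at 221, 28.1 and 73.4 in JG and 9.57, 11.0 and 13.7 in MSC (adjusted p = 0.0886), and Apoa1, at 61.1, 85.2 and 58.9 in JG and 50.0, 34.5 and 39.4 in MSC (adjusted p = 0.180), lay higher in JG without overlap and without a call. Alb was below 16 in all JG samples.

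**Figure D4:**
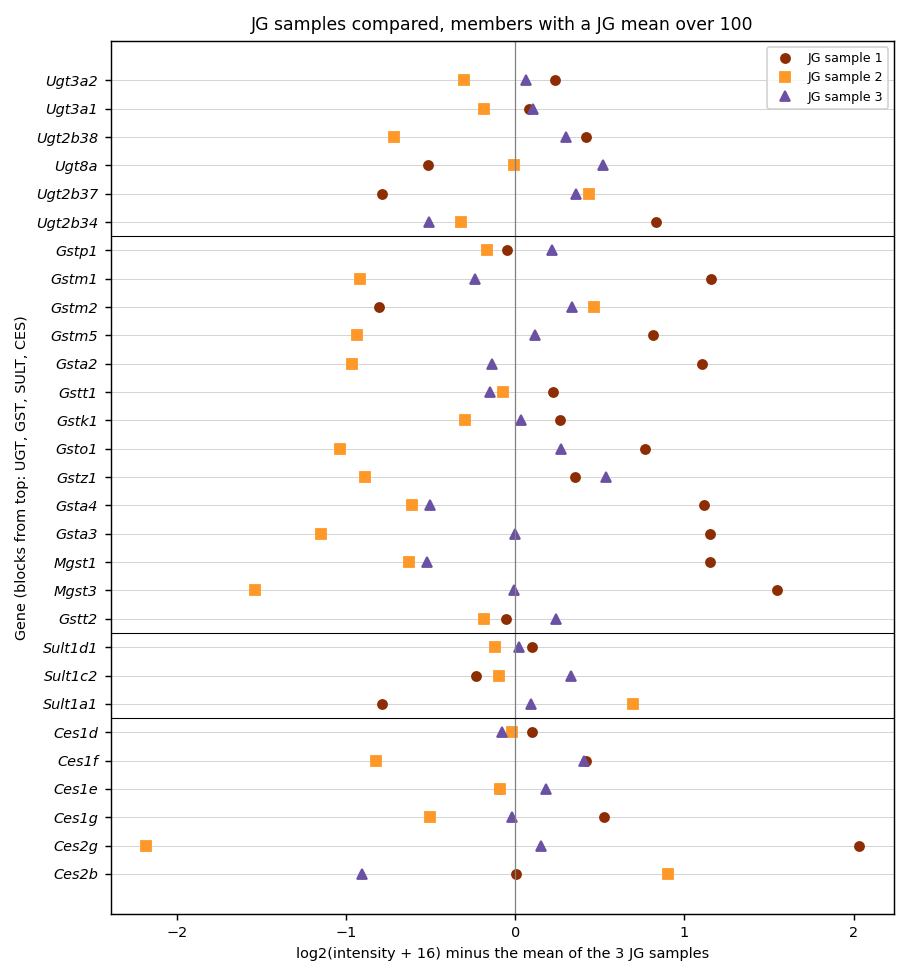
Each JG sample's log2(intensity + 16) minus the mean of the 3 JG samples, for the 29 members with a JG mean over 100, in blocks from top to bottom for UGT, GST, SULT and CES. Dark circles are JG sample 1, orange squares JG sample 2 and purple triangles JG sample 3. In the GST block the circle is the rightmost point for 10 of 14 genes and the square the leftmost for 12 of 14.

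Genes that supply the donors of conjugation and finish its products were then read from lists of 85 measured genes in all, of which 30 were called higher in JG and 7 higher in MSC. Of all genes 7.70% and 7.63% were, so the calls higher in MSC were near the background. Of 5 genes that make, carry or use UDP-glucuronate or cleave glucuronides, Ugdh, which makes UDP-glucuronate, was 2090, 1717 and 1865 in JG and 1018, 744 and 651 in MSC (1.24 ± 0.26, adjusted p = 0.0253). Gusb, the lysosomal enzyme that removes glucuronate, was lower in JG at 248, 142 and 180 against 353, 548 and 559 (-1.29 ± 0.31, adjusted p = 0.0393). Ugdh missed the threshold without MSC sample 2 or 3 or JG sample 3 (adjusted p from 0.0638 to 0.111), and Gusb without any 1 sample other than JG sample 1 (adjusted p from 0.0647 to 0.153). Ugdh also missed it with a pseudocount of 1 or the replicate block (adjusted p of 0.0878 and 0.0698), and Gusb under 7 other alternatives (adjusted p from 0.0509 to 0.112).

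For sulfation 3 of 8 genes were higher in JG and 1 was lower. The sulfate transporters Slc13a1 (4.05 ± 0.29) and Slc26a1 (3.01 ± 0.30) rose, as did Bpnt1, which clears the spent donor (1.82 ± 0.41), and Slc35b3, a PAPS transporter of the Golgi, fell by 1.75. Papss2, the brighter of the measured PAPS synthetase genes, was 3699, 1182 and 2076 in JG and 700, 555 and 734 in MSC and just missed the threshold (1.64 ± 0.43, adjusted p = 0.0515). It was called in 7 alternatives with all samples (adjusted p from 0.00326 to 0.0412). Bpnt1 missed the threshold when MSC sample 1, 2 or 3 or JG sample 3 was left out (adjusted p from 0.0862 to 0.126), and Slc35b3 when MSC sample 2 or 3 was (adjusted p of 0.0605 and 0.0573). Bpnt1 also missed it with a pseudocount of 1 (adjusted p = 0.0508) and Slc35b3 with the replicate block (adjusted p = 0.0553).

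Glutathione synthesis and recycling had 5 of 11 genes higher in JG and 1 lower. Cbs, which channels homocysteine towards cysteine, was 863, 1872 and 1568 in JG and 47.2, 75.7 and 54.4 in MSC (4.22 ± 0.35, adjusted p = 8.68e-04), Ggct rose by 3.06 ± 0.27 and Gsr, glutathione reductase, by 1.53 ± 0.25. Gss, glutathione synthetase, was 2.26 ± 0.36 higher (adjusted p = 0.0103), but 0.85 (adjusted p = 0.561) at its probe set without the suffix s or x and 1.55 (adjusted p = 0.11) as the mean of its probe sets. Chac1, which degrades glutathione, was 6.23, 11.6 and 65.6 in JG and 295, 309 and 340 in MSC (-3.16 ± 0.50, adjusted p = 0.01). Without MSC sample 2 the adjusted p was 0.0505 for Chac1 and 0.0546 for Gsr, and without MSC sample 3 it was 0.0522 for Chac1.

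The mercapturic acid pathway, which trims glutathione conjugates to their excreted form, had 6 of 11 genes higher in JG and 0 lower. Nat8, the cysteine-conjugate N-acetyltransferase, was 1802, 2098 and 2937 in JG and 8.10, 4.89 and 5.73 in MSC (6.66 ± 0.26, adjusted p = 6.35e-05). Dpep1, a renal dipeptidase, was 4166, 4121 and 5513 in JG and 46.5, 91.3 and 29.1 in MSC (6.09 ± 0.37, adjusted p = 2.21e-04). Acy3, an aminoacylase that removes the acetyl group from mercapturates, was 5231, 3390 and 4826 in JG and 36.8, 48.8 and 81.2 in MSC (6.0 ± 0.32, adjusted p = 1.60e-04). Of other proteins related to glutathione transferases, 3 of 11 were higher in JG: the prostaglandin E synthases Ptges (2.69 ± 0.41) and Ptges2 (3.21 ± 0.45), and Gdap1 (1.14 ± 0.28, adjusted p = 0.0422), which lost its call in all fits with 1 sample left out except that without JG sample 2, and in 6 other alternatives (adjusted p from 0.0532 to 0.438). Clic4, the brightest of that list, was not called (-0.61 ± 0.23, adjusted p = 0.124), but passed in 3 alternatives (adjusted p from 0.0325 to 0.0457).

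Other conjugation routes were read in the same way. Of 14 genes of methyl, acetyl and glycine conjugation 7 were higher in JG and 0 lower. Keg1, a glycine N-acyltransferase-like gene, was 2461, 4417 and 3522 in JG and 2.60, 2.32 and 1.66 in MSC (7.54 ± 0.28, adjusted p = 5.59e-05). Glyat, the mitochondrial glycine N-acyltransferase, was 2610, 1827 and 2304 in JG and at most 3.92 in MSC (6.88 ± 0.24), and Acsm2, which activates benzoate-like acids for it, differed by 7.16 ± 0.30. Of 10 other hydrolases Aadac (4.73 ± 0.44) and the soluble epoxide hydrolase gene Ephx2 (3.55 ± 0.49) rose, while Ephx1, the microsomal epoxide hydrolase, and Pon3, a lactonase, fell. Ephx1 was 692, 605 and 889 in MSC and 97.4, 23 and 148 in JG (-3.03 ± 0.54, adjusted p = 0.0151), and it missed the threshold with MSC sample 1, 2 or 3 left out (adjusted p from 0.0597 to 0.0725). Pon3 was 101, 214 and 174 in MSC and 10.1, 4.89 and 3.50 in JG (-2.97 ± 0.32, adjusted p = 0.00223). Pon2, the brightest hydrolase, was not called (-0.64 ± 0.21, adjusted p = 0.0952), but passed with a pseudocount of 64 or array weights (adjusted p of 0.0208 and 0.0344).

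Of 15 regulators of these genes 3 were higher in JG and 2 lower. Hnf4a, a master factor of hepatocyte and proximal tubule genes, was 947, 515 and 1322 in JG and 12.2, 15.7 and 12.8 in MSC (4.90 ± 0.37, adjusted p = 5.68e-04). Ppara, the fatty acid receptor, was 3.99 ± 0.57 higher and Nr1h4, the bile acid receptor, 2.84 ± 0.36 higher. Ahr, the receptor for dioxins and other planar aromatic compounds, was 123, 215 and 242 in MSC and 25, 14.9 and 47.3 in JG (-2.23 ± 0.38, adjusted p = 0.0127), and Maff, a small partner of NRF2, fell by 3.14. The Ahr call was lost without MSC sample 2 or 3 (adjusted p of 0.0653 and 0.0626), and that of Maff without MSC sample 1, 2 or 3 or JG sample 3 (adjusted p from 0.0647 to 0.089). Nfe2l2, the NRF2 gene itself, was chosen after its values were seen: it was 753, 70.2 and 117 in JG and 576, 596 and 624 in MSC (adjusted p = 0.226, no call). Cebpb, the brightest regulator, was not called (adjusted p = 0.716), and its sign varied between alternatives.

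**Figure D5:**
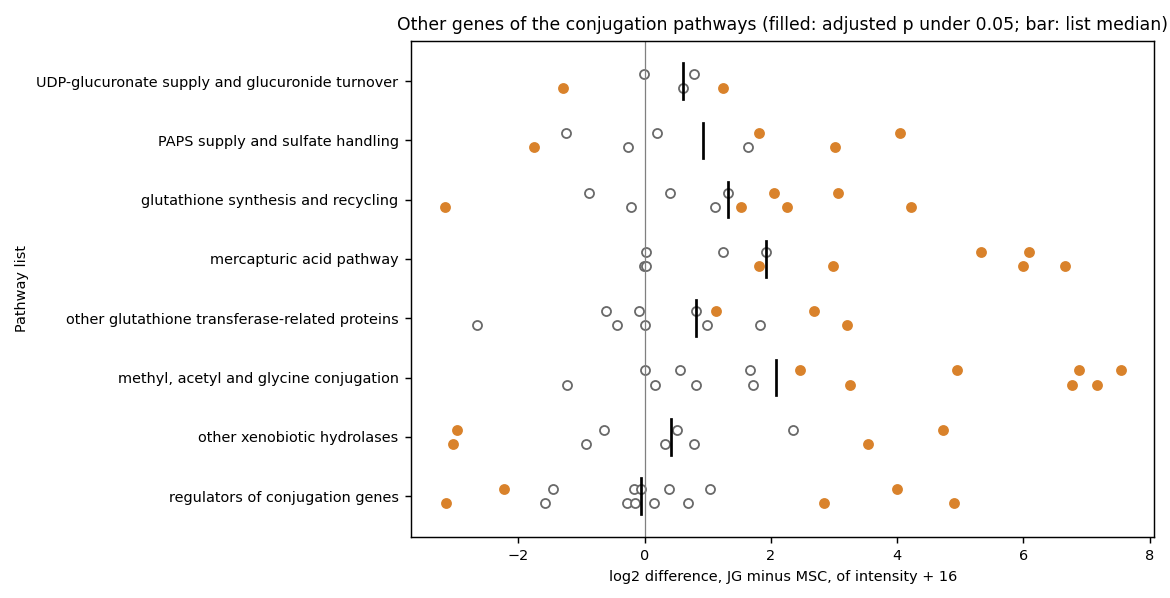
Difference, JG minus MSC, on the log2 scale for the 85 measured genes of 8 pathway lists, 1 point per gene, with a black bar at each list's median. Filled points passed an adjusted p of 0.05. The mercapturic acid and the methyl, acetyl and glycine conjugation lists have medians of 1.92 and 2.09 and no filled point to the left of 0, and the regulators have a median of -0.05.

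The calls rested on most samples. Of the 21 enzymes called, 16 kept their call in all 6 fits with 1 sample left out and in every other alternative in which they were measured, among them all 6 UGT genes, Sult1d1, Sult1c2 and the 4 Ces1 genes. The 5 that did not were Ces2b, Ces2e, Gsta3, Gstz1 and Sult1a1.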

How the data were processed

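RNA of 6 samples was labelled as biotinylated cRNA for Affymetrix arrays, according to the labels' protocols. The deposited table gives a linear intensity for each of 45037 probe sets. How the authors summarised probes or scaled arrays: not given in the sources used here. No detection calls come with the intensities, and a low one does not show absence. The number of arrays limits the precision. By the platform annotation 34945 probe sets were paired with 1 gene, 932 with several and 9160 with none. Members matched the symbol starts Ugt, Gsta, Gstm, Gsto, Gstp, Gstk, Gstt, Gstz, Mgst, Sult or Ces, each followed by a digit.

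Each gene was read at the probe set with the highest mean of log2(intensity + 16). JG was compared with MSC by limma 3.58.1 (R 4.3.3; lmFit and eBayes without covariates, Benjamini-Hochberg adjustment over all 18193 genes), with no filter. The fit was also run on simulated data with 1 spread per gene for both groups. The median SD over all genes was 0.54 in JG and 0.26 in MSC, so that run does not cover the unequal spread, and nothing is concluded from it. Figures were drawn with matplotlib 3.10.9. The members and lists were chosen with earlier results of these data known. Named per family were up to 8 called members per direction and the 3 brightest in each group, and other members by range or where a single value stood out. Named per pathway list were up to 3 called genes per direction and the brightest.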

Additional observations from a re-analysis of the deposited data

Results flagged for a closer look

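Signal stood in probe sets that the comparisons did not use because the annotation pairs them with several genes. Of 6 such probe sets with at least 1 symbol of the 4 families, 4 were called higher in JG in a limma fit over all 45037 probe sets, where 4.23% of probe sets were. A GST probe set paired with 3 genes had a JG mean of 2494 ± 1706 (SD, n = 3), with 4462, 1444 and 1575 in JG samples 1 to 3, against 9.30 ± 3.64 in MSC (6.44 ± 0.47, adjusted p = 0.00103). Of 3 UGT probe sets paired with the same 8 genes, the first had 2069 ± 1352 in JG and 157 ± 37.8 in MSC (3.40 ± 0.50, adjusted p = 0.012). The second had 2388 ± 1104 in JG and 185 ± 67.3 in MSC (3.50 ± 0.47, adjusted p = 0.00906). The third had 2405 ± 441 in JG and 190.0 ± 34.4 in MSC (3.55 ± 0.25, adjusted p = 8.96e-04). Since each is paired with several genes, its signal is assigned to none. None of the 8 genes is among the 11 UGT members, and the means of the 3 UGT probe sets in MSC were over 100, unlike those of all 11.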

How the results depend on the processing

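Alternatives changed the array scaling (quantile, median centring), the pseudocount (1 or 64), the removal of dim genes (25th percentile, median), the reading of a gene (mean of its probe sets, no suffix s or x), the variance model (trended and robust prior, array weights) and the samples, or blocked on the replicate number. A fit over all probe sets was added after seeing the data. The 21 enzymes higher in JG became 16 to 23 with 1 sample left out and 19 to 27 otherwise, and each family's count stayed within 1.5 times. With array weights 3208 of all genes were higher in JG and 2969 in MSC, 3 enzymes (Gstm4, Gstm7 and Gsto1, all GSTs) were higher in MSC, and so were 13 pathway genes. With 1 sample left out, counts over all genes ran from 719 (without MSC sample 1 or 2) to 2551 (without JG sample 1) higher in JG and from 411 (without MSC sample 3) to 2643 (without JG sample 1) in MSC. The same fits gave 0 to 2 enzymes, all GSTs, and 1 to 10 pathway genes higher in MSC.

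The replicate numbers were checked for pairing: deviations of same-numbered samples correlated at -0.20, -0.01 and -0.01. With 3 samples per group this gave no sign of pairing but cannot exclude it. With the number as a block 903 of all genes were higher in JG and 710 in MSC, and 19 enzymes were higher in JG. Signs turned only for uncalled genes among those named. Gstp1, at 0.04, ran from -0.17 to 0.32 with 1 sample left out. Cebpb, at -0.27, ran from -0.53 to 0.22 in those fits and was 0.01 with the mean of probe sets and 0.07 with array weights, and the cause was not tested. Of 60 enzymes 34 had all MSC values below 16, where array signal limits what a difference can show.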
